A study of Homo sapiens with 4 samples.

Results

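The 9 genes followed here have promoter CpG islands known to be methylated in colorectal cancer: CDKN2A, CDKN2B, MGMT, TIMP3, RASSF1, HIC1, RUNX3, NEUROG1 and SOCS1. They were chosen by name, as markers of the CpG island methylator phenotype or as suppressors silenced in colorectal tumors, and their probes were found by the RefSeq accession that the array design gives. The 9 members had 11 probes among the 50594 used on the arrays. CDKN2A and RUNX3 had 2 probes each, the other 7 genes had 1, and every member probe was a single spot. The question was which members were measurable in the cells and which were restored by 5-azacytidine.

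HCT116 cells derive from a human colorectal carcinoma. Their MG cells had repeatedly crossed the membrane of a migration chamber, and their non-MG cells had stayed on the upper side, so each is an enriched population of 1 line and not a clone. Cells of both kinds received 5 µM 5-azacytidine or vehicle for 48 h, and RNA of each of the 4 conditions was hybridized to 1 one-colour array. There were therefore no replicates and no test, and a ratio with its spot error covers spotting and scanning and not cultures or labellings. All 4 arrays lay on 1 slide with a position for each condition, so effects of position and of condition cannot be told apart. The RNA extraction was named as RNAiso Plus in the sample labels and as RNeasy in the methods of the study.

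CpG islands are stretches of DNA rich in CpG dinucleotides that cover the start of many genes and are normally unmethylated. When the cytosines of such an island become methylated, the gene is usually silent. 5-azacytidine is a cytidine analog that is built into nucleic acids, traps DNA methyltransferases and lowers DNA methylation as cells divide, so that silenced genes can be transcribed again. Methylation of CDKN2A, RASSF1, MGMT and the like is a standard measurement in colorectal tumors. The arrays measured RNA and not methylation.

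The promoter windows below show what these starts look like. The RefSeq windows of GRCh38.p14 run from 250 bases before to 50 bases after a gene start. They were found for 8 of the 9 members, 10 windows in all, and HIC1 had no entry. The 250 bases before the start are printed for SOCS1, the member that differed most between arrays, for CDKN2A and MGMT, which stayed well expressed, for TIMP3, which was under the detection limit throughout, and for UCHL1, a gene outside the members that 5-azacytidine switched on. Every CpG is in capitals, and the sequences read 5′ to 3′ on the strand of the gene.
SOCS1, chr16:11256205-11256454, minus strand: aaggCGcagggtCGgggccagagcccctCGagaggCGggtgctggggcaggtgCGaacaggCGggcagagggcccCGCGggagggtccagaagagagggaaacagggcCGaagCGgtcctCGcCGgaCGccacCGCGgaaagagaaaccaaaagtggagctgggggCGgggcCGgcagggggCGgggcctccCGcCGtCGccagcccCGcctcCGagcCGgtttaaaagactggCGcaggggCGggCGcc
CDKN2A, the window nearest the p16 start, chr9:21974858-21975107, minus strand: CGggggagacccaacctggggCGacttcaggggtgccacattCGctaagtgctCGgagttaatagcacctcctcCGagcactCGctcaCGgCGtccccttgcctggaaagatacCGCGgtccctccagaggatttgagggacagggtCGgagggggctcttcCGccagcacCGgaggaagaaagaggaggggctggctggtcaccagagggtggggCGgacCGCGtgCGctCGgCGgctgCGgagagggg
MGMT, chr10:129466991-129467240, plus strand: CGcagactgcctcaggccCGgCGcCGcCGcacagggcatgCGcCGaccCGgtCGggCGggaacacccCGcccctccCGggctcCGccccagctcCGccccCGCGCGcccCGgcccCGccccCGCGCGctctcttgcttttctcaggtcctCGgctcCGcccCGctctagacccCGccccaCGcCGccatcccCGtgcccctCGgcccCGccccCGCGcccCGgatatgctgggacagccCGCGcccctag
TIMP3, chr22:32801455-32801704, plus strand: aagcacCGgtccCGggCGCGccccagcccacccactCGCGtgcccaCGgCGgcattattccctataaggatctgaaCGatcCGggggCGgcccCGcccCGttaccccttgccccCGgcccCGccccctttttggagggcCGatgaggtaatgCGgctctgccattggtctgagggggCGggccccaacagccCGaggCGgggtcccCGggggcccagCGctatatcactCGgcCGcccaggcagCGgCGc
UCHL1, chr4:41256678-41256927, plus strand: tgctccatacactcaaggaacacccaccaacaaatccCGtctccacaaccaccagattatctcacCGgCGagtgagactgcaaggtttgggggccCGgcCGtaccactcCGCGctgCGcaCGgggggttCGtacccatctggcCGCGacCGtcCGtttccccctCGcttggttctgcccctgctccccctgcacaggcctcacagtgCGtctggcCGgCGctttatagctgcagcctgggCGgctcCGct
The MGMT stretch held 36 CpG, the SOCS1 stretch 27, the TIMP3 stretch 26 and the CDKN2A and UCHL1 stretches 20 each.

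Over the full 300 bases, the member windows held a median of 32.0 CpG, from 15 in one RUNX3 window to 45 in that of MGMT, compared with a median of 14.0 over all 35116 windows. MGMT had more CpG than 96.5% of the windows. With GC content above 50% and a ratio of observed to expected CpG above 0.6 taken as island-like, 9 of 10 member windows were island-like, compared with 46.8% of all windows. The exception was the RUNX3 window with 15 CpG, whose observed to expected ratio was 0.46. The other RUNX3 window held 38. The letters GGGCGG, the core of the GC box that Sp1 binds, occurred on either strand in 9 of 10 member windows, most often at MGMT with 8 matches, and in 45.0% of all windows. The letters TATAAA occurred in no member window and in 11.5% of all windows. A match is a description of the sequence and not a bound site.

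The members with and without a signal well above background overlapped in CpG count. TIMP3, NEUROG1 and CDKN2B, not well above background on any array, had 31, 35 and 25 CpG in their windows. SOCS1 and RASSF1, measured on every array, had 33 each, and the CDKN2A windows had 26 and 28. The UCHL1 and CRABP1 windows had 25 each, and that of IGFBP3 had 36.

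**Figure D1:**
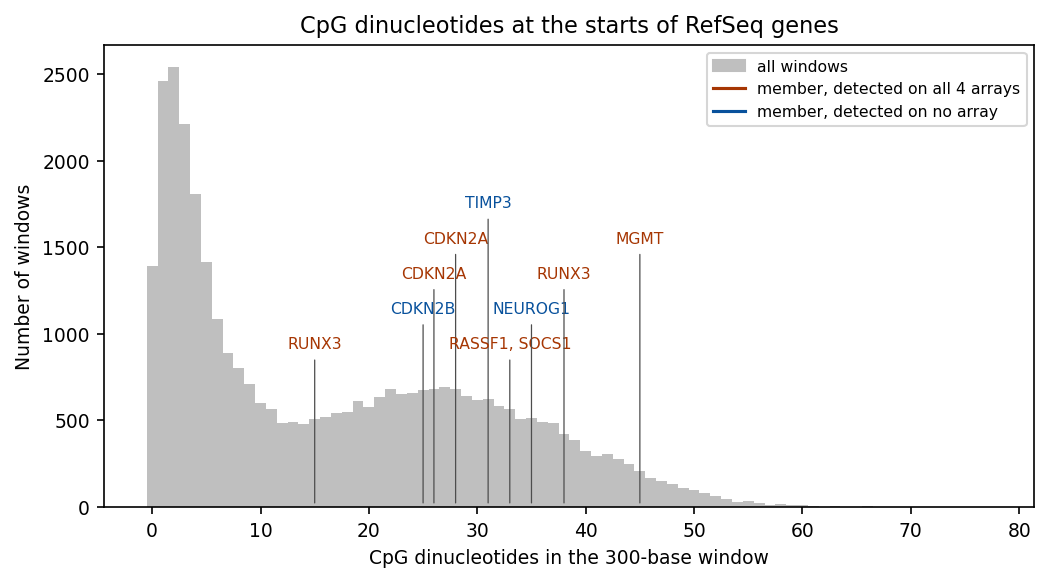
Number of RefSeq promoter windows (y axis) against the number of CpG dinucleotides in the 300 bases (x axis), for all 35116 windows in grey, with the 10 windows of 8 members marked by name. Members detected on all 4 arrays (red) and on no array (blue) overlap in range, from 15 to 45 and from 25 to 35 CpG, with all but one RUNX3 window at 25 CpG or more.

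Several properties of the arrays bear on the values. Between 21382 and 21881 of 50594 probes were well above background on an array, and no spot was saturated. The detection limit, taken as the dimmest signal flagged well above background on an array, lay between 9.95 and 11.8. The 75th percentile of intensity, by which each array was scaled, lay between 75.2 and 98.7. The median SD between repeated spots was 0.22 at log2 intensities from 1 to 2 and 0.58 from 2 to 3. It fell from there to 0.05 from 10 to 11. Dim probes are thus measured less precisely than bright ones, though the dimmest range did not have the largest SD. The colon epithelium markers EPCAM, KRT8, KRT18, KRT19, KRT20, CDH1, CDX1 and CDX2 were well above background on all 4 arrays, 8 of 9 listed, with a summed intensity from 1292 to 1371 times the 75th percentile, and VIL1 was on none. The fibroblast markers summed to between 0.70 and 1.22 (COL1A1 alone of 5 was well above background), the leukocyte markers to between 0.49 and 0.89 (CD14 was well above background on all 4 arrays, PTPRC and CD3E on none) and the endothelial markers to between 0.40 and 0.61 (VWF alone of 3). Where RNA of a gene is lower in bulk samples like these, fewer cells with the RNA and less RNA per cell cannot be told apart.

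With vehicle, 5 of the 9 members, CDKN2A, MGMT, RASSF1, RUNX3 and SOCS1, were well above background in both cell types, and they were so on the other 2 arrays as well. Their 7 probes make up all member probes that could give a ratio. The other 4, CDKN2B, TIMP3, HIC1 and NEUROG1, were well above background on none of the 4 arrays, so the rule kept 5 of 9 members, among 18915 genes with a retained probe in all. Counted by probe, it kept 7 of 11 member probes, beside 23856 of all 50594. At least 1 probe of each of these 5 genes, though not every transcript of the gene, was thus detected in HCT116 cells without the drug. Single probes were compared between arrays and never with each other.

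**Figure D2:**
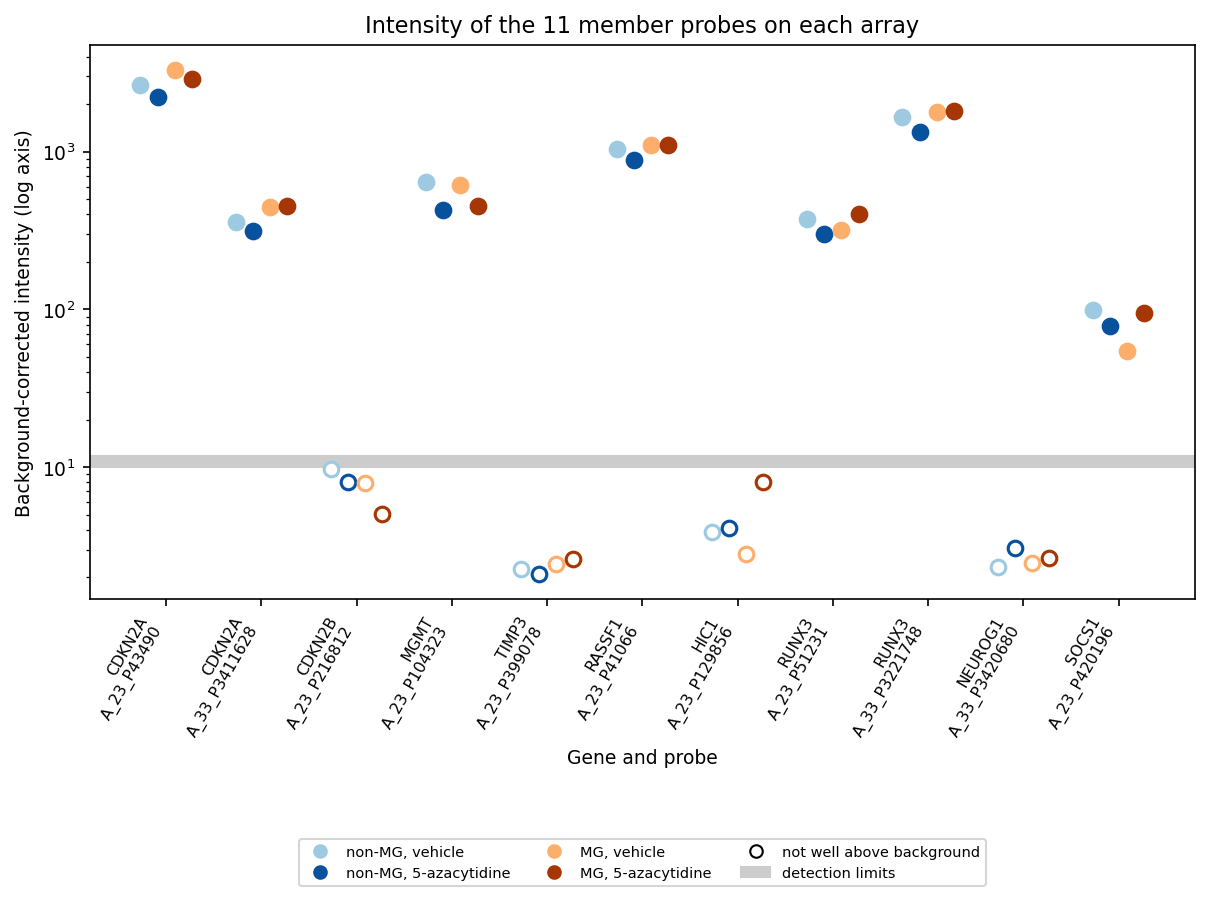
Background-corrected intensity (log axis) of the 11 member probes on each of the 4 arrays (one point per array; filled, well above background; open, not). The grey band spans the detection limits of 9.95 to 11.8; 7 probes of 5 genes lie above it on every array and 4 probes of 4 genes below it on every array.

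None of these 4 members was switched on by 5-azacytidine. A probe was called switched on where it was not well above background with vehicle, was so with 5-azacytidine, and had a lower bound above 1-fold. In the non-MG cells 0 of these 4 member probes met this, beside 3.09% of the 28713 probes that were not well above background with vehicle. In the MG cells it was 0 of 4, beside 3.70% of 28907. With shares this low and 4 probes, 0 lies near the background and says nothing particular about the members.

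TIMP3, a tissue inhibitor of metalloproteinases held in the extracellular matrix, had intensities of 2.26 in vehicle-treated non-MG cells, 2.11 in the drug-treated non-MG cells, 2.44 in the vehicle-treated MG cells and 2.60 in the drug-treated MG cells. These lie between 21.2% and 22.5% of the detection limit of their arrays. NEUROG1, a basic helix-loop-helix factor of neuronal fate that serves as a methylator phenotype marker, had intensities of 2.31, 3.07, 2.48 and 2.64 in the same order, 21.6% to 30.8% of the limit. Both genes stayed far under the limit with and without the drug.

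HIC1, a zinc finger repressor that acts with p53, had intensities of 3.87, 4.11, 2.83 and 8.05 in the same order. The highest was that of the drug-treated MG cells, at 68.1% of the limit of its array, compared with 24.6% with vehicle. Neither was well above background, so no fold is given. CDKN2B encodes the CDK4 and CDK6 inhibitor p15 and lies beside CDKN2A, and its intensities were 9.74, 8.10, 7.92 and 5.01. It was nearest the limit in the vehicle-treated non-MG cells, at 97.0%, and lowest in the drug-treated MG cells, at 42.4%. The more lenient flag of the scanner software, for signal that is positive and above background, was tried after the data were seen. By it CDKN2B was positive on all 4 arrays, HIC1 on all but the vehicle-treated MG cells, NEUROG1 in the drug-treated non-MG cells alone, and TIMP3 on none. None of the 4 probes was in the table of log2 values that the authors deposited.

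Among the 5 measured members, SOCS1 was the 1 that passed 1.5-fold with 5-azacytidine, and it did so in the MG cells alone. SOCS1 is a suppressor of cytokine signaling that binds JAK kinases and is itself induced by STAT factors. Its probe had intensities of 98.4 in the vehicle-treated non-MG cells, 78.7 in the drug-treated non-MG cells, 54.1 in the vehicle-treated MG cells and 94.4 in the drug-treated MG cells. On the log2 scale relative to the 75th percentile of each array, these are levels of 0.18, 0.07, -0.87 and -0.03. The array of vehicle-treated MG cells stood apart as the low one, and the other 3 lay within 0.21 of each other. The summed markers of all 4 listed cell types were also lowest on that array. They stood at 1292 (colon epithelium), 0.70 (fibroblast), 0.49 (leukocyte) and 0.40 (endothelium) times the 75th percentile. Their part in the SOCS1 values was not tested.

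In the MG cells SOCS1 was 1.79-fold higher with 5-azacytidine than with vehicle, a log2 ratio of 0.84 (spot error 0.16), against -0.11 (spot error 0.12) in the non-MG cells. With vehicle, the SOCS1 level of the MG cells was 2.06-fold below that of the non-MG cells, a log2 ratio of -1.04 (spot error 0.16), and with 5-azacytidine the log2 ratio was -0.10 (spot error 0.12). The fall between the cell types and the rise with the drug share 1 measurement, the single SOCS1 spot on the array of vehicle-treated MG cells. Before background subtraction that spot had a median intensity of 100 over a local background of 26, compared with 122 to 138 over 25 to 28 on the other arrays. Under normexp background correction, which adds an offset of 50 to every signal, the log2 ratios were 0.41 for the drug in MG cells and -0.53 between the cell types with vehicle, and neither passed 1.5-fold. Centring each array on its median turned the log2 ratio between the cell types with 5-azacytidine to 0.16.

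Of the 15707 genes that were well above background on every array, 219 had a larger log2 ratio with 5-azacytidine in the MG cells than SOCS1, which puts it at percentile 98.6. In vehicle-treated MG over non-MG cells, 220 genes had a lower ratio, at percentile 1.4. It lay at percentile 36.3 for the drug in non-MG cells and 38.3 between the cell types with the drug, well inside the bulk of genes. The 3 genes with the closest pattern over the 4 arrays, of 12749 named genes, were DNAH17-AS1, AKIRIN2 and DNAJC1, at Euclidean distances of 0.12, 0.13 and 0.13 on the log2 scale after each gene's own mean was subtracted. Their log2 ratios with 5-azacytidine in the MG cells were 0.73, 0.71 and 0.85. The genes were picked by these same 4 values, so ratios near that of SOCS1 follow from the choice.

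RUNX3, a Runt-domain transcription factor that acts downstream of TGF-beta, was read by 2 probes of 1 accession that did not move alike. The probe A_23_P51231 had log2 levels relative to the 75th percentile of 2.11 in the vehicle-treated non-MG cells, 2.0 with 5-azacytidine, 1.69 in the vehicle-treated MG cells and 2.07 with 5-azacytidine. As with SOCS1, the vehicle-treated MG cells were lowest. Its log2 ratio was 0.38 (1.30-fold) with 5-azacytidine in the MG cells and -0.42 (1.34-fold lower) between the cell types with vehicle, both with a spot error of 0.09 and both under 1.5-fold. The brighter probe A_33_P3221748 had levels of 4.24, 4.14, 4.17 and 4.23, and its 4 log2 ratios lay between -0.10 and 0.09 with a spot error of 0.07. The gene's mean ratio with 5-azacytidine in the MG cells was 0.22. The ratios of this probe were smaller than those of the first in the drug comparison in the MG cells and between the cell types with vehicle.

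MGMT was the member that lay lower by more than its spot error with 5-azacytidine in both cell types. It encodes the enzyme that removes alkyl groups from guanine. Its intensities were 642.5 in the vehicle-treated non-MG cells and 425.1 with 5-azacytidine, and 611.9 in the vehicle-treated MG cells and 452.3 with 5-azacytidine, or log2 levels of 2.88, 2.50, 2.63 and 2.23. Both drug arrays lay below both vehicle arrays. The log2 ratio with the drug was -0.38 for the non-MG cells (1.31-fold lower, spot error 0.09) and -0.40 in the MG cells (1.32-fold lower, spot error 0.09). Neither passed 1.5-fold. The direction was kept under all 6 alternatives, with ranges of -0.49 to -0.31 for the non-MG and -0.44 to -0.37 for the MG cells. Among the 15707 genes MGMT lay at percentiles 6.8 and 6.0, just inside the 5th percentile of -0.43 in both cell types. Between the cell types the log2 ratios were -0.25 with vehicle and -0.27 with the drug, and with median centring they were -0.06 and -0.01.

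CDKN2A and RASSF1 were nearly level over the 4 arrays. CDKN2A encodes the cell cycle inhibitor p16 and, from another start, p14ARF, which holds back MDM2. The probe A_33_P3411628, designed on a p16 transcript but not known to single it out, had log2 levels of 2.04 in the vehicle-treated non-MG cells, 2.07 with 5-azacytidine, 2.17 in the vehicle-treated MG cells and 2.24 with 5-azacytidine, and the drug ratios were 0.02 and 0.06 (spot error 0.09 each). The probe A_23_P43490 of another CDKN2A transcript had levels of 4.92, 4.88, 5.07 and 4.91, and drug ratios of -0.04 and -0.15 (spot error 0.07 each). For both probes the MG cells were the higher ones with vehicle, by 0.13 and 0.15 on the log2 scale, at most 1.11-fold.

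RASSF1 encodes a scaffold protein of the Hippo and microtubule systems. Its probe is designed on the RASSF1C transcript, while the island methylated in tumors is that of the RASSF1A start, so the probe does not single out RASSF1A. Whether the RASSF1 promoter window counted above lies at the RASSF1A start was not checked. The intensities were 1043, 884, 1109 and 1099 in the order above, and the log2 levels 3.58, 3.56, 3.49 and 3.51. Over the 4 arrays these levels spanned 0.09, the narrowest range of the 7 measured member probes, and the drug ratios were -0.03 and 0.02 (spot errors 0.08 and 0.07). The ranges of the other probes were 0.10 and 0.42 for RUNX3, 0.19 for each CDKN2A probe, 0.65 for MGMT and 1.04 for SOCS1.

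**Figure D3:**
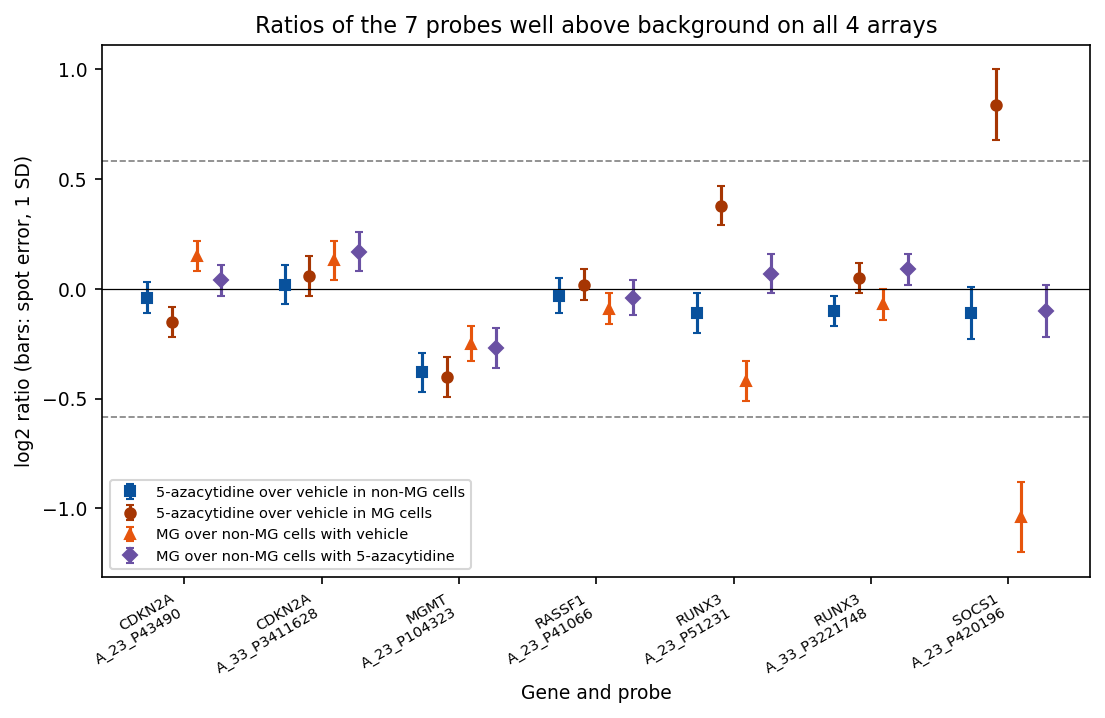
log2 ratios (y axis) of the 7 member probes well above background on all 4 arrays, for the 4 comparisons, with bars of 1 spot error (SD between repeated spots, not cultures) and dashed lines at 1.5-fold. SOCS1 alone lies past the lines, at 0.84 for the drug in MG cells and at -1.04 between the cell types with vehicle.

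Counted over genes with a retained probe, 0 of 5 members were higher past 1.5-fold with 5-azacytidine in the non-MG cells and 0 were lower, beside 6.01% and 4.58% of 18915 genes. In the MG cells 1 of 5 was higher and 0 were lower, beside 7.62% and 6.38%. Of the 15707 genes detected well above background throughout, as these 5 members were, 3.02% were higher in the MG cells. The median log2 ratio of the 5 was -0.11 for the non-MG and 0.02 for the MG cells, compared with -0.04 and -0.02 over all genes, with SOCS1 and MGMT on opposite sides in the MG cells.

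In vehicle-treated MG over non-MG cells, 0 of 5 members were higher and 1 was lower, beside 8.23% and 12.6% of all genes, or 8.24% lower among genes that every array had well above background. With 5-azacytidine 0 were higher and 0 lower, beside 8.60% and 12.3%. The medians of the 5 were -0.24 and -0.04, compared with -0.03 and -0.01 over all genes. The first of these comparisons shares the array of vehicle-treated MG cells with the drug comparison in MG cells. Each count of 1 is SOCS1.

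**Figure D4:**
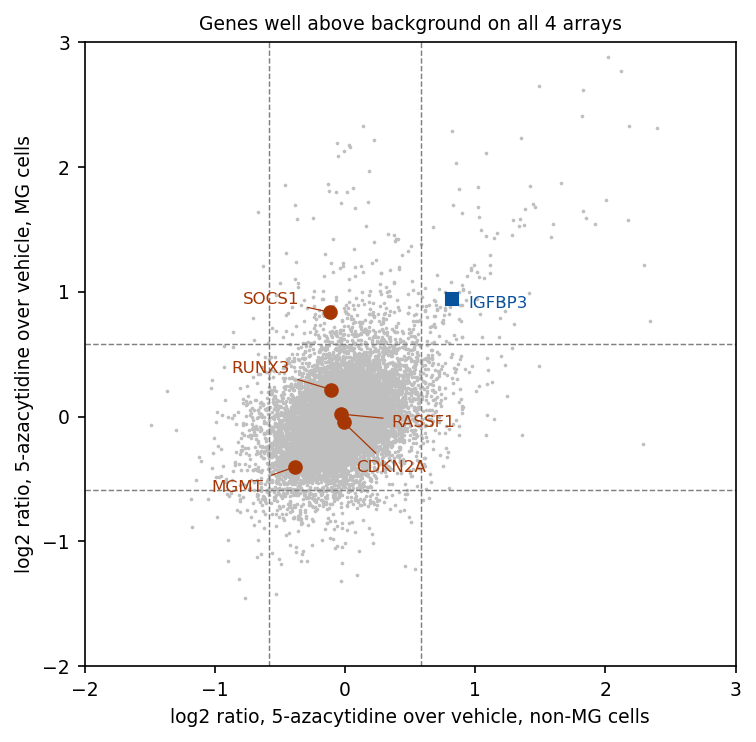
log2 ratio of 5-azacytidine over vehicle in MG cells (y axis) against that in non-MG cells (x axis) for genes with every array well above background (15691 of 15707 lie within the axes), with the 5 measured members in red, IGFBP3 in blue and dashed lines at 1.5-fold. SOCS1 sits at -0.11 and 0.84, MGMT at -0.38 and -0.40, and RASSF1 and CDKN2A near 0 on both axes.

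The members were set beside other genes of the same kind. Of 4 further methylator phenotype markers, 1 passed 1.5-fold with the drug in each cell type, and it was CRABP1, a carrier of retinoic acid inside cells. Its probe A_33_P3326483 had intensities of 2.39 in the vehicle-treated non-MG cells, 21.6 with 5-azacytidine, 2.56 in the vehicle-treated MG cells and 43.9 with 5-azacytidine. It was switched on in both cell types, at least 2.49-fold and at least 3.92-fold. The other CRABP1 probe, at 17.4, 25.3, 11.7 and 29.5, was 1.69-fold higher with the drug in the non-MG cells (spot error 0.28 on the log2 scale), and the bound in the MG cells was 2.57-fold. CACNA1G, a calcium channel subunit, had ratios of -0.08 and -0.40 with the drug, and was lower in the MG cells by 1.5 on the log2 scale with vehicle and by 1.82 with 5-azacytidine, a direction and a call kept under all 6 alternatives. The bright probe of IGF2, a growth factor, had drug ratios of -0.15 and 0.27, and its dim probe was switched on in the non-MG cells alone, at least 1.23-fold.

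Of 34 further genes with CpG islands methylated in colorectal cancer, 22 were well above background on no array, and 10 had a retained probe. UCHL1, a ubiquitin hydrolase of neurons, was switched on in both cell types. Its intensities were 2.01 in the vehicle-treated non-MG cells, 378 with 5-azacytidine, 2.28 in the vehicle-treated MG cells and 612 with 5-azacytidine. The rise was at least 43.6-fold and at least 54.6-fold, from background to a bright signal at the same dose and time. IGFBP3, a carrier of insulin-like growth factors, had intensities of 21.5, 32.8, 38.2 and 71.7 and was raised in both cell types, 1.77-fold and 1.92-fold (0.82 and 0.94 on the log2 scale, spot errors 0.07 and 0.05). With normexp correction these log2 ratios were 0.30 and 0.40, those of the retained CRABP1 probe A_33_P3216869 were 0.31 and 0.35, and none passed 1.5-fold. The bounds of the other CRABP1 probe and of UCHL1 were not recomputed with normexp. In the MG cells alone, TFPI2, a protease inhibitor, was switched on, at least 4.66-fold. TP73, a p53 relative, was switched on at least 1.5-fold in the MG cells, from 11.6 to 16.9 at probe A_24_P413470. In the non-MG cells that probe was already well above background with vehicle, at 14, so it could not be called switched on there. Its log2 drug ratio there was 0.24 (spot error 0.45). Whether TFPI2 or TP73 responds differently in the 2 cell types was not tested.

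**Figure D5:**
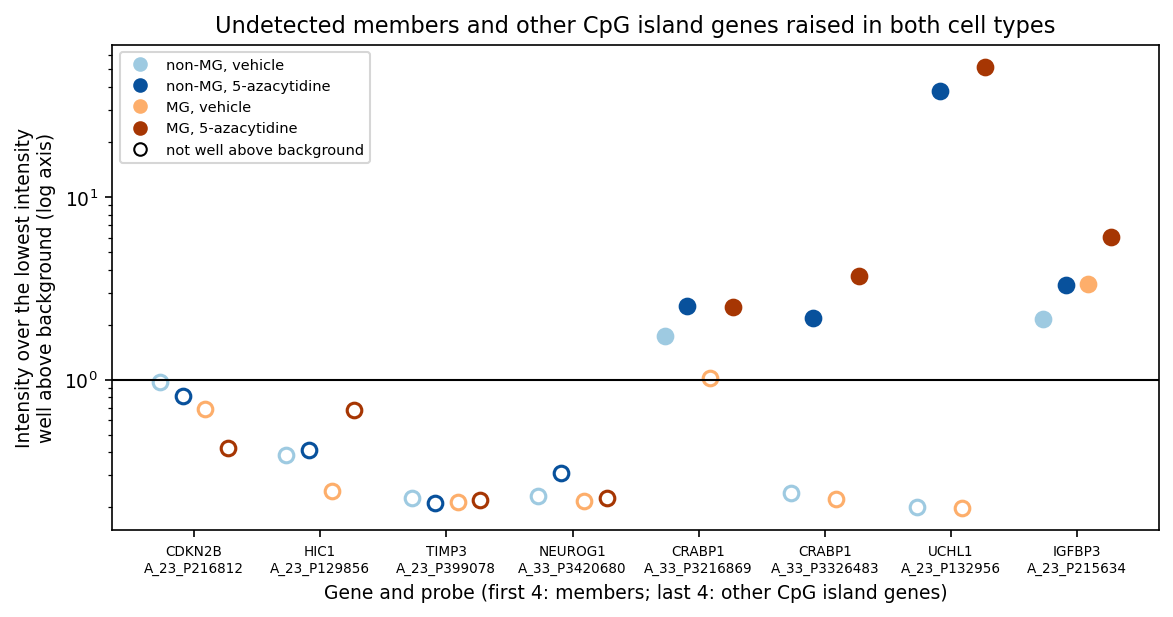
Intensity of each probe divided by the detection limit of its array (log axis), for the 4 members below the limit and for the probes of CRABP1, UCHL1 and IGFBP3, the listed CpG island genes switched on or raised in both cell types (filled, well above background; open, not; black line, detection limit). The members stay at 97.0% of the limit or less on every array, while the 5-azacytidine arrays of CRABP1, UCHL1 and IGFBP3 lie above it.

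In the MG over non-MG comparison of these 34 genes, SPARC, THBS1 and IGFBP3 were higher with vehicle, by log2 ratios of 0.66, 0.71 and 0.65, and BNIP3, a mitophagy receptor, was lower at -1.07. With 5-azacytidine SPARC was higher at 1.13 and IGFBP3 at 0.77, and BNIP3 was lower at -0.79. The calls of IGFBP3 in both comparisons and of THBS1 and SPARC with vehicle were lost under normexp correction, and that of BNIP3 with 5-azacytidine under median centring. Among the cell type markers, KRT20 was raised by the drug in both cell types, with log2 ratios of 1.42 and 1.85 (spot errors 0.34 and 0.22). CD14 was raised as well, at 0.87 and 1.0 (spot errors 0.28 and 0.38). With normexp correction CD14 and, in the non-MG cells, KRT20 no longer passed 1.5-fold.

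Of 50 relatives and partners of the members, 45 had a retained probe. In the non-MG cells 1 of 45 was higher past 1.5-fold and 0 were lower, beside 6.01% and 4.58% of all 18915 genes. It was RASSF6, at 0.74, from a probe just above the detection limit with a spot error of 0.38. In the MG cells 0 were higher and 0 lower, beside 7.62% and 6.38%. A probe well above background on all 4 arrays was held by 42 of these genes. Of all such genes, 3.02% were higher in the MG cells. With shares this low, the drug counts say nothing particular about the group. The median log2 ratios of the group were -0.10 and -0.03. Single probes of HIC2, in the non-MG cells, and MDM2, in the MG cells, rose past 1.5-fold, while the genes' mean ratios were 0.46 and 0.48. The RASSF3 probe A_33_P3398411 fell by 0.94 on the log2 scale in the MG cells (spot error 0.24), and the gene's mean ratio was -0.53. Between the cell types, 6 were lower with vehicle, beside 12.6% of all genes. With 5-azacytidine 6 were higher and 2 lower, beside 8.60% and 12.3%. The medians of the group were 0.09 with vehicle and 0.05 with 5-azacytidine. None of these calls changed direction under the 6 alternatives, but those of RASSF6, CDKN1A, MDM2, RASSF5, RUNX1, TIMP1 and CDKN2B-AS1 were lost under normexp correction.

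In the cytokine pathway around SOCS1, the drug ratios of its relatives and partners stayed under 1.5-fold. With 5-azacytidine in the MG cells, the log2 ratios were 0.02 for SOCS2, -0.11 for SOCS3, 0.05 for SOCS4, -0.14 for SOCS5, -0.41 for SOCS7 and -0.12 for CISH, and SOCS6 was well above background on no array. For the kinases JAK1 and JAK2 they were 0.23 and -0.16, and for the transcription factor STAT3 0.05. None of these named genes rose past 1.5-fold beside SOCS1.

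Between the cell types these genes differed more. With vehicle, CISH was lower in the MG cells at -1.0, STAT3 at -0.89 and SOCS3 at -0.59, while SOCS2 was higher at 0.77. With 5-azacytidine CISH and SOCS3 were lower again, at -0.60 and -0.62, STAT3 was at -0.49, and SOCS2 and SOCS4 were higher at 0.67 and 0.63. The call of SOCS2 held under all 6 alternatives. Under normexp correction the calls of CISH, SOCS3 and STAT3 were lost, and that of SOCS4 was lost under quantile normalization.

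Around CDKN2A and CDKN2B, the cyclin-dependent kinases CDK4 and CDK6 had drug ratios from -0.12 to 0.07, the retinoblastoma gene RB1 0.02 and -0.12, and the cyclin gene CCND1 -0.14 and 0.19. The inhibitors CDKN1B, CDKN2C and CDKN2D had ratios from -0.42 to -0.07. CDKN1A, the p21 inhibitor that p53 induces, had ratios of 0.16 and 0.57, and was higher in drug-treated MG than non-MG cells at 0.67, as was MDM2 at 0.67. CDKN1C was lower in the vehicle-treated MG cells at -0.87, under all 6 alternatives. MTAP, the gene next to CDKN2A, had drug ratios of -0.18 and -0.30. CDKN2B-AS1, transcribed opposite CDKN2B, was well above background on 1 array, by 1 of 3 probes, in the vehicle-treated non-MG cells, the array on which CDKN2B was nearest the limit.

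The DNA repair genes named here beside MGMT did not fall past 1.5-fold with the drug. The log2 ratios in the non-MG and MG cells were 0.02 and -0.04 for MSH6, 0.10 and -0.27 for MSH3, -0.03 and -0.15 for PMS2, -0.09 and 0.04 for ALKBH2 and -0.16 and 0.03 for ALKBH3. The RUNX relatives RUNX1 and RUNX2 had drug ratios of -0.45 and -0.12 (non-MG) and 0.26 and -0.08 (MG), and their partner CBFB -0.11 and -0.08. RUNX1 was higher in the drug-treated MG cells at 0.76.

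Beside TIMP3, TIMP1 and TIMP2 were bright on all arrays and had drug ratios of -0.13 and 0.05 (non-MG) and 0.25 and -0.09 (MG). TIMP1 was lower in the vehicle-treated MG cells at -0.72, and TIMP4 was well above background on no array. Beside RASSF1, RASSF3, RASSF4 and RASSF7 had drug ratios from -0.53 to 0.42, RASSF5 was higher in the drug-treated MG cells at 0.96, and the Hippo kinases STK3 and STK4 and their adaptor SAV1 had drug ratios from -0.38 to 0.17. SIRT1, a deacetylase that HIC1 represses, had drug ratios of 0.34 and 0.27. Of the neuronal factors near NEUROG1 in family, NEUROG3 alone was well above background, with drug ratios of -0.14 and 0.05, and NEUROG2, NEUROD1 and ATOH1 were so on no array.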

How the data were processed

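RNA of HCT116 MG and non-MG cells was measured on 1 one-colour Agilent SurePrint G3 array per condition. The authors deposited Agilent Feature Extraction 11.5.1.1 output, with linear background-corrected intensity values that are not normalized between arrays, and a table of log2 values centred per probe. From the intensity, log2 minus the 75th percentile of the array was computed. Control and outlier spots were left out and spots averaged per probe. For counts over genes, a probe was dropped if 2 or more arrays placed it in their lowest 20th percentile or if no array flagged it as well above background, and the retained probes of a gene averaged. A probe not well above background on 1 array of a pair has only a bound ("at least") against that array's detection limit or its own signal there, whichever is higher. Saturation and background flags are those of the scanner software. Changes were counted past 1.5-fold. With 1 array per condition no test was made, and the 4 arrays limit the precision. Accessions were matched to RefSeq gene names and promoters of GRCh38.p14, which is not the build of the array design, so no probe coordinates are given.

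The members, lists and alternatives were chosen with earlier results of these data known. Genes named are the members, listed genes raised or switched on in both cell types, relatives well above background on all 4 arrays, and the 3 genes closest in pattern to a member past 1.5-fold. Others were named after their values were seen, and some listed genes are not reported here. Alternatives were normexp (offset 50, on the median spot intensity), median centring, the 75th percentile over probes well above background on all 4 arrays, quantile normalization, signals raised to the detection limit, the authors' log2 values, other filters, the brightest probe and 2-fold. The scripts were tested on simulated data. The tools were limma 3.58.1 under R 4.3.3, and pandas 2.3.3, numpy 2.4.6 and matplotlib 3.10.9 under Python 3.11.15.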

Additional observations from a re-analysis of the deposited data

Results flagged for a closer look

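For SOCS1, the log2 drug ratios of the MG and non-MG cells, 0.84 and -0.11, were opposite in sign. Their difference of 0.95 was larger than its spot error of 0.20. The non-MG ratio lay within its own spot error of 0.12, so its sign is not established. With normexp correction the ratios were 0.41 and -0.06. For the RUNX3 probe A_23_P51231 the drug ratios in the same order were 0.38 and -0.11, a difference of 0.49 with a spot error of 0.13. For the RUNX3 probe A_33_P3221748 they were 0.05 and -0.10, a difference of 0.16 with a spot error of 0.10. Its MG ratio of 0.05 lay within its own spot error of 0.07. With 1 array per condition these differences between the cell types were not tested.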

How the results depend on the processing

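No paired analysis was possible because each condition has 1 array. The number of members higher past 1.5-fold with 5-azacytidine in the MG cells was 1, and it was 0 with normexp correction, 0 at 2-fold and 2 with no filter on dim probes. The number lower in MG than in non-MG cells under vehicle was 1, and it was 0 with normexp correction and 2 with no filter. With no filter, 1 member was higher with the drug in the non-MG cells, 1 was lower with it in the MG cells, and 1 was higher and 1 lower between the cell types with 5-azacytidine, where the counts were 0. The members that no filter adds are probes well above background on neither array of the pair. Of 28 ratios of the 7 measured probes, median centring moved 20 by more than their spot error, normexp 11, the 75th percentile over probes above background on all 4 arrays 5 and quantile normalization 4. Raising signals to the detection limit and the authors' values moved 0. Median centring put the median of all genes at 0.17 and 0.25 for MG over non-MG cells under vehicle and under 5-azacytidine, and at -0.13 and -0.06 for the drug in non-MG and MG cells. Ratios of single spots near the detection limit are the least certain, and 4 of the 9 members could be given only as under that limit.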

Other observations

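The filter on probes that 2 or more arrays put in their lowest 20th percentile bears on genes that go from background to signal with the drug. Of 212 probes not well above background on both vehicle arrays and well above it on both 5-azacytidine arrays, the filter left out 22, or 10.4%, compared with 305 of 24161 probes, or 1.26%, among those well above background on at least 1 array. UCHL1 is among the genes left out, and it is described above from its probe and not in the gene counts. The 4 undetected members were left out because they were well above background on no array.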
